A study of Mus musculus with 10 samples.

Results

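The genes described here are 10 interferon-induced antiviral effectors, *Ifit1*, *Ifit2*, *Ifit3*, *Ifitm1*, *Ifitm2*, *Ifitm3*, *Ifitm6*, *Isg15*, *Rsad2* and *Ifi27l2a*. They were taken by symbol from a table of 10431 genes, and all 10 were found and passed the filter on low values. The table holds whole-blood RNA sequencing of 10 female mice (labelled C57BL6), of which 5 were later prone to antipsychotic-induced weight gain (AIWG-P, mice P1, P3, P5, P7 and P8) and 5 were resistant to it (AIWG-R, mice R1, R2, R4, R8 and R9). Both cohorts came from 1 study in which every mouse went on to eat olanzapine, an antipsychotic drug, mixed into food with 45% of kcal as fat, for 14 days, and the cohorts were picked as the mice that gained the most and the least weight. The mice were 9 weeks old when bought and were moved from chow to the high-fat food at 10 weeks, 3 days before the drug was added, and no treatment differed between the cohorts. According to the study's methods the blood was drawn before the drug, whereas the sample labels give the olanzapine diet as the treatment and describe blood from both ends of the study, so the time of sampling rests on the methods. The labels of P7, P8 and R1 also carry a 3 and those of the remaining mice a 4, and what this number stands for is not stated.

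Type I interferons bind a receptor on almost every cell, and transcription factors activated by it then switch on many genes through a promoter element known as the ISRE. IFIT proteins bind viral RNA and hinder its translation. IFITM proteins sit in cell and endosome membranes and block the entry of enveloped viruses. ISG15 is a ubiquitin-like protein that is joined to other proteins and is also secreted, and viperin, the product of *Rsad2*, makes a nucleotide that stops viral RNA synthesis. IFI27L2A is a small membrane protein induced by interferon. Whole blood mixes red cells and their RNA-containing precursors, platelets and all leukocytes, and several IFITM genes are active in resting myeloid cells without infection.

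The promoters of these genes differ in their matches to the element that interferon acts on, and those of *Isg15*, *Rsad2*, *Ifit1* and *Ifit3* are shown in full. Whether the matches go with the patterns of values reported below was not tested. The window runs from 250 bases before to 50 bases after the start given by RefSeq (GRCm38.p6), and 9 of the 10 genes were matched, *Ifi27l2a* being the exception. Capitals mark each match to GAAANNGAAA, searched on both strands, with its reverse complement TTTCNNTTTC. In the *Isg15* promoter at chr4:156200769-156201068 (minus strand) 3 overlapping matches ran together. The *Rsad2* promoter at chr12:26456403-26456702 (minus strand) held 1 match, and those of *Ifit1* at chr19:34640639-34640938 and *Ifit3* at chr19:34583279-34583578 (plus strand) held 2 each.
Isg15: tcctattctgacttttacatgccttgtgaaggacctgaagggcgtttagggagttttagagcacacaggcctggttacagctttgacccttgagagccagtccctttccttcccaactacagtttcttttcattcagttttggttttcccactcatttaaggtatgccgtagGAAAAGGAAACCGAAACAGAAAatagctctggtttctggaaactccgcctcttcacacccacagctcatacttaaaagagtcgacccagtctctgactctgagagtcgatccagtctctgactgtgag
Rsad2: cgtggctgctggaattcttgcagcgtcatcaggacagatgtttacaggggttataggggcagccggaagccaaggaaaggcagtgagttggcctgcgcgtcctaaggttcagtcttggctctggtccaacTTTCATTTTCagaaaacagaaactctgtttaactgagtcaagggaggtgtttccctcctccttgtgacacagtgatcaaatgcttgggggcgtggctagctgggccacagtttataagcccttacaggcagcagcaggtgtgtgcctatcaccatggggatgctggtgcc
Ifit1: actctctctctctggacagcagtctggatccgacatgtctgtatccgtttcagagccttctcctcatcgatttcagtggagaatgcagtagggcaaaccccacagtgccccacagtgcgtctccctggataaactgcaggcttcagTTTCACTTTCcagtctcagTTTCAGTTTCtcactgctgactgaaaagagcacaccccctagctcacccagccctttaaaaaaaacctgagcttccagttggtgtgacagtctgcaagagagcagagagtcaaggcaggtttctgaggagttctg
Ifit3: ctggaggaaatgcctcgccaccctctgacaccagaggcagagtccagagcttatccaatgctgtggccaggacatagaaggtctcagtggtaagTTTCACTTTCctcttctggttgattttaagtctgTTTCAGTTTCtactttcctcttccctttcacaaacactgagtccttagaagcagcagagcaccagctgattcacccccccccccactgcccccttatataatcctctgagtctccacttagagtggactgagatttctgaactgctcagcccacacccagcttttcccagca

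Among the IFITM genes, *Ifitm2* held 1 match, which began 46 bases before the start (chr7:140955998-140956007, minus strand), and *Ifitm3* held 2 matches, which began at bases 3 and 20 of the transcript (chr7:141010733-141010742 and chr7:141010716-141010725, minus strand). The 30 bases around these matches are given, since the match of *Ifitm2* and the first match of *Ifitm3* have the same letters. The first and second matches of *Isg15* also carry the letters of the first and second matches of *Ifitm3*, so these letters are not particular to the IFITM genes.
Ifitm2: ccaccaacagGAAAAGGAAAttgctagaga
Ifitm3, first match: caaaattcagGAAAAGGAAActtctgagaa
Ifitm3, second match: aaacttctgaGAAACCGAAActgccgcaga

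The windows of *Ifit2*, *Ifitm1* and *Ifitm6* held no match, which says only that these letters are not in these windows. In all, 6 of the 9 matched genes held the element, which 3.99% of 27025 genes with a window held and 4.13% of the 8312 genes of the table with a window. A match of letters is a description and not a measured binding site.

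The values analyzed are the authors' normalized expression values, which have no stated unit. Within each mouse all of them were whole multiples of 1 step (to 0.02 steps), and the members stood at 86 steps or more in every mouse. Sums over genes ran from 22353520 to 45642066 for AIWG-P mice, against 16909806 to 30472510 for AIWG-R mice, and the medians over genes lay between 142.93 and 145.72 in all 10 mice. The share of the sum taken by globin transcripts was 78.2% to 87.5% for AIWG-P mice against 75.01% to 83.2% for AIWG-R mice, with P8 at the top and R9 at the bottom. P8 held the highest value of the 10 mice in 27.1% of genes and the lowest in 28.5%. R9 held the highest in 13.5% and the lowest in 12.3%, near the 12.1% of P3, but it was the lowest mouse in 7 of the 10 members. Several results are therefore also given without P8 and R9, a choice made after the values were seen. Whole blood being a bulk sample, more cells of a type and more RNA per cell cannot be told apart in any of these values.

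*Rsad2* had by far the highest normalized values of the members. Its mean over the 10 mice stood at the 99.6th percentile of all genes tested, that of *Isg15* at the 94.9th, and those of the others lay between the 46.6th (*Ifitm6*) and 86.6th (*Ifitm3*). Per kb of its longest coding transcript (GENCODE M21), *Rsad2* had a level of 3144 ± 507 in AIWG-P against 2072 ± 651 in AIWG-R (SD, n = 5 each), followed by *Isg15* with 2159 ± 660 and 1310 ± 467. The IFIT genes were the lowest on this per-length scale, with means of 78.0 to 94.7 in AIWG-P against 74.1 to 91.4 in AIWG-R, and those 3 did not differ from each other beyond their spread. *Ifitm3*, *Ifi27l2a* and *Ifitm2* came next after *Isg15* in AIWG-P, at 1008 ± 178, 884 ± 251 and 846 ± 118 per kb, and these neighbours also lay within their spread.

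**Figure D1:**
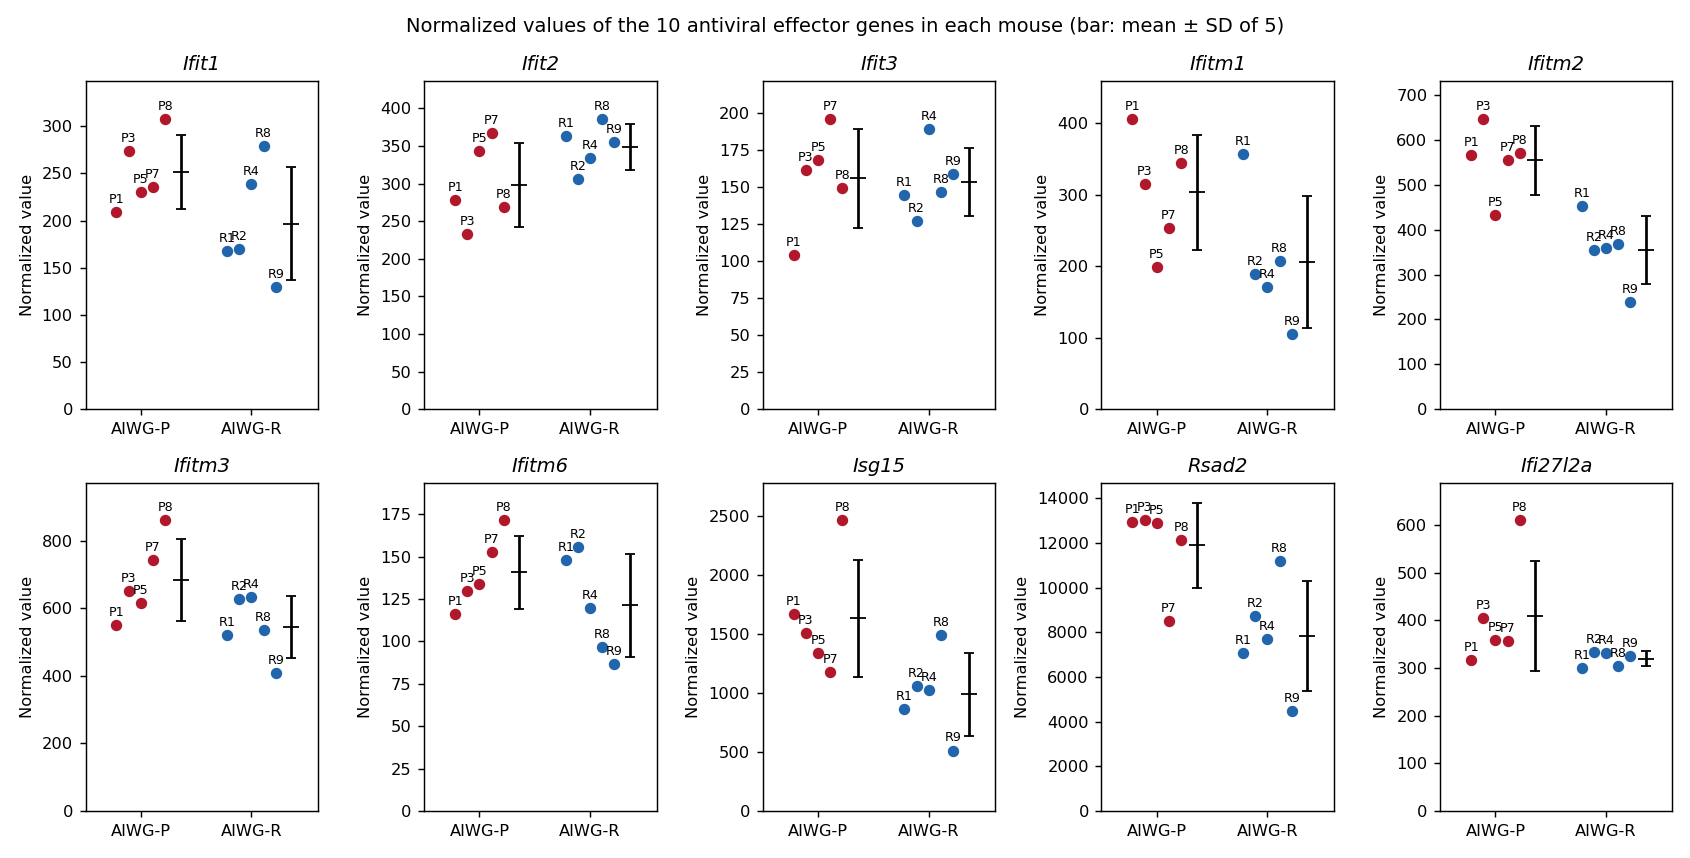
Normalized value of each member (vertical axes, from 0, no stated unit) in the 5 AIWG-P mice (left, red) and the 5 AIWG-R mice (right, blue), with the mean and SD of each cohort as black bars. *Ifitm2*, *Rsad2* and *Ifi27l2a* have 4 AIWG-P mice above all AIWG-R mice, *Ifit2* and *Ifit3* do not, and R9 is the lowest mouse in 7 of the 10 panels.

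Of the 10 members, 5 rose in AIWG-P relative to AIWG-R and 0 fell, where a gene counts as changed at an unadjusted *p* under 0.05 in limma and a log2 fold change beyond 0.322 either way. Over all 10429 genes tested 4.06% rose and 3.23% fell by the same rule, or 7.29% in either direction. In 0 members were all AIWG-P mice above or all below the AIWG-R mice, while 1.11% of all genes had every AIWG-P mouse above and 1.44% every AIWG-P mouse below. The genes that rose were *Isg15*, *Ifitm2*, *Rsad2*, *Ifitm1* and *Ifitm3*. The log2 fold change was positive in 9 of the 10 members with a median of 0.36, against 48.4% of all genes and a median of -0.01. *Ifit3*, at 0.01, was the 1 positive member whose sign turned when globins were left out of the scaling (-0.14), where the median of all genes was -0.15. No member passed a Benjamini-Hochberg adjusted *p* of 0.05 in limma, nor did any of the 10429 genes, of which 1340 had an unadjusted *p* under 0.05. The study placed *Ifit1*, *Ifitm1*, *Ifitm2*, *Ifitm3*, *Isg15* and *Rsad2* in a gene set that it chose on these same mice, so their direction is not independent of that choice.

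*Isg15*, the ubiquitin-like modifier, had normalized values of 1667, 1511, 1339, 1182 and 2463 in the AIWG-P mice P1, P3, P5, P7 and P8, against 867, 1061, 1022, 1488 and 512 in the AIWG-R mice R1, R2, R4, R8 and R9. P8 was the highest mouse and R9 the lowest, R8 was the only AIWG-R mouse within the AIWG-P range, and 3 AIWG-P mice lay above every AIWG-R mouse. The log2 fold change was 0.75 (standard error 0.25, *p* = 0.00979, adjusted *p* = 0.327, limma), and the exact 2-sided permutation test of the mean log2 value gave *p* = 0.0238, where the smallest value this design allows is 0.00794. Without P8 and R9 the log2 fold change was 0.38 (95% interval 0.05 to 0.70, limma), and it was still called.

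*Rsad2*, which encodes viperin, had values of 12928, 13004, 12873, 8523 and 12126 in the AIWG-P mice in the same order, against 7071, 8731, 7715, 11211 and 4455 in the AIWG-R mice. Within AIWG-P, P7 stood apart below the other 4 mice, which lay within a narrow band above all AIWG-R mice, while R8 was again the highest and R9 the lowest AIWG-R mouse. The log2 fold change was 0.65 (standard error 0.21, *p* = 0.00855, adjusted *p* = 0.325, limma), with an exact permutation *p* of 0.0238. It was 0.45 without P8 and R9 (95% interval 0.09 to 0.80, limma), and 0.36 after quantile normalization (-0.01 to 0.72), under which *Rsad2* was no longer called. *Cmpk2*, an interferon-induced gene that lies next to *Rsad2*, averaged 156 in AIWG-P, against 141 in AIWG-R, and did not pass (log2 fold change 0.14, 95% interval -0.16 to 0.44).

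*Ifitm2* showed the smallest *p* of the members and ranked 14th of all genes by *p*. Its values were 567, 647, 433, 554 and 570 in AIWG-P against 453, 354, 358, 369 and 238 in AIWG-R. All AIWG-P mice except P5 lay above every AIWG-R mouse, with R1 the highest and R9 the lowest of the resistant mice. The log2 fold change was 0.66 (standard error 0.15, *p* = 0.000777, adjusted *p* = 0.325, limma), with an exact permutation *p* of 0.0159, and it was 0.51 without P8 and R9 (95% interval 0.25 to 0.78, limma). It was the only member called under every alternative tried. Of the 50-base stretches of the *Ifitm2* transcript, 48.5% were shared with transcripts of other genes, most of them with *Gm45717*, so its value may depend on how reads were divided among these copies.

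*Ifitm1* had values of 406, 315, 198, 253 and 344 in AIWG-P against 356, 190, 171, 207 and 105 in AIWG-R. The groups overlapped through R1, which was the second highest mouse, and through P5, which lay below 2 of the AIWG-R mice. The log2 fold change was 0.62 (standard error 0.27, *p* = 0.0368, adjusted *p* = 0.373, limma), the exact permutation test did not pass (*p* = 0.0952), and the call was lost when any 1 of P1, P3, P8, R2, R4 or R9 was left out (0.41 without R9).

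*Ifitm3*, the family member best known for restricting influenza virus, had values of 549, 651, 614, 742 and 859 in AIWG-P against 521, 626, 632, 535 and 408 in AIWG-R. P8 and P7 lay at the top, R9 at the bottom, and the other 7 mice between 521 and 651 with the cohorts mixed. Its log2 fold change of 0.33 (standard error 0.14, *p* = 0.0352, adjusted *p* = 0.370, limma) was a fold change of 1.255 that barely passed the threshold, and the exact permutation test gave *p* = 0.0635. The call was lost without P7, P8, R1, R8 or R9, and the log2 fold change was 0.14 without P8 and R9 together. Of the 10 members 3 rose without P8 and R9, *Ifitm2*, *Isg15* and *Rsad2*, where 1.71% of all genes rose and 1.80% fell. *Ifitm6*, the remaining family member, had values of 116, 130, 134, 152 and 171 in AIWG-P against 148, 156, 119, 96.5 and 86.5 in AIWG-R, with 4 AIWG-P mice inside the AIWG-R range, and did not pass (log2 fold change 0.24, 95% interval -0.12 to 0.60).

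The 3 IFIT genes did not follow 1 direction. *Ifit1* had values of 209, 274, 231, 236 and 308 in AIWG-P against 167, 170, 239, 279 and 130 in AIWG-R. Its log2 fold change of 0.39 (95% interval -0.01 to 0.79, adjusted *p* = 0.395, limma) did not pass, although it did so when P1, R4 or R8 was left out. It was 0.25 without R9 and 0.18 without P8 and R9 (95% interval -0.16 to 0.52, limma). *Ifit2* was lower in AIWG-P on average, with values of 278, 232, 343, 367 and 269 in AIWG-P against 364, 306, 334, 386 and 356 in AIWG-R, 3 of the AIWG-P mice lying below every AIWG-R mouse. Its log2 fold change of -0.24 (95% interval -0.51 to 0.02, adjusted *p* = 0.419, limma) did not pass either, and it passed without P7, the AIWG-P mouse with the highest value. *Ifit3* had values of 104, 162, 168, 196 and 149 in AIWG-P against 145, 127, 189, 146 and 159 in AIWG-R, with a log2 fold change of 0.01 (95% interval -0.33 to 0.34). Of the *Ifit3* transcript, 51.2% of the 50-base stretches were shared with *Ifit3b*, which is listed as *I830012O16Rik* and had values of 47.3 in AIWG-P against 41.5 in AIWG-R, so reads of the pair may have been divided between them.

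*Ifi27l2a* lay on the other side of the fold threshold from *Ifitm3*. Its values were 317, 405, 359, 356 and 610 in AIWG-P against 299, 333, 331, 305 and 325 in AIWG-R. The 5 AIWG-R mice were within a coefficient of variation of 4.94%, while that of the AIWG-P cohort was 28.4%, with P8 far above the other mice. The log2 fold change of 0.321 (limma *p* = 0.0448, exact permutation *p* = 0.0317) was a fold change of 1.249, just under the threshold, and it was 0.17 without P8.

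**Figure D2:**
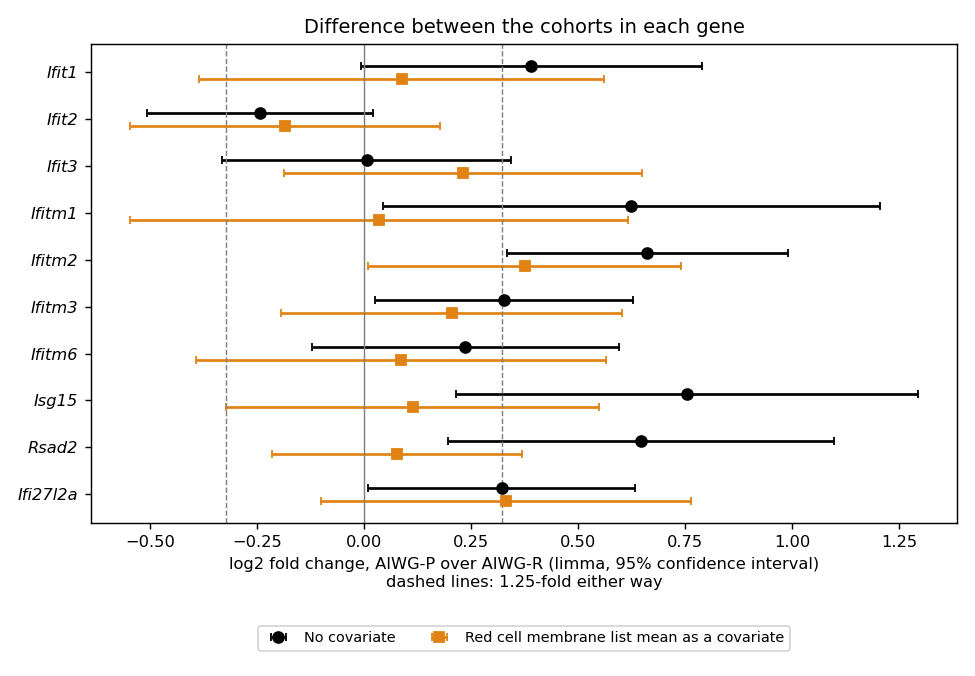
Log2 fold change of each member, AIWG-P over AIWG-R, with the limma 95% interval (horizontal axis), without a covariate (black) and with the mean log2 value of the red cell membrane list as a covariate (orange). *Isg15* and *Rsad2* move from 0.75 and 0.65 to 0.11 and 0.08 under the covariate, and *Ifitm2* is at 0.37 with it, against 0.66 without. The list mean itself differs between the cohorts, so this fit cannot separate the list from the cohort.

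Red cell membrane transcripts, which encode the band 3 anion exchanger, ankyrin and blood group proteins, differed between the same mice. Of the 19 genes on that list 13 rose in AIWG-P and 0 fell, and their summed value ran from 42033 to 69495 in AIWG-P against 27940 to 57774 in AIWG-R, with *Slc4a1* at 6456 in AIWG-P against 4045 in AIWG-R. Of 11 measured neutrophil markers 1 rose (summed value 11071 to 15878 in AIWG-P against 9195 to 20373 in AIWG-R). *Ly6g*, *Camp*, *Ltf* and *Wfdc21* were also on that list but were not matched to any measured gene. Of 14 monocyte markers 0 passed (17468 to 24015 in AIWG-P against 15065 to 19172 in AIWG-R). Log2 fold changes were above 0 in 13 of these 14, in 10 of the 11 neutrophil markers and in all 19 red cell genes, beside 48.4% of all genes. When the mean log2 value of the red cell list was added to the fit, the log2 fold change was 0.11 for *Isg15* (95% interval -0.32 to 0.55), 0.08 for *Rsad2* (-0.21 to 0.37), 0.04 for *Ifitm1* and 0.20 for *Ifitm3*, and *Ifitm2* was the only member called (0.37, 95% interval 0.01 to 0.74, limma). In that fit 1.32% of all genes rose and 2.34% fell. With the neutrophil list as the covariate *Ifitm1* was at 0.27 (95% interval -0.21 to 0.74) and was not called, while *Ifitm2* at 0.48, *Ifitm3* at 0.36, *Ifi27l2a* at 0.39, *Isg15* at 0.79 and *Rsad2* at 0.66 were, and 3.14% of all genes rose and 3.27% fell. With the monocyte list *Ifitm3* was at 0.20 (95% interval -0.09 to 0.49, limma) and *Ifitm1* at 0.57 (-0.10 to 1.24), and neither was called. Of all 10429 genes 384 rose and 289 fell in that fit. The mean log2 value of the red cell list itself differed between the cohorts (by 0.56, exact permutation *p* = 0.0159), so the fit with it cannot separate the list from the cohort. The part of these cell types in the differences between the cohorts was not tested.

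Whether the members rise and fall together from mouse to mouse was examined over the 45 pairs of members, with each cohort's mean removed so that the difference between the cohorts adds nothing. The median Pearson *r* was 0.30, with 32 pairs positive and 13 negative, while the median over all 54376806 pairs of genes tested was 0.00. The pairs ran from -0.49 (*Ifit3* with *Ifitm1*) to 0.90 (*Ifitm1* with *Ifitm2*). In exact permutation tests within the cohorts 5 of the 45 pairs had an unadjusted *p* under 0.05 and 0 passed after Benjamini-Hochberg adjustment. With the cohorts pooled the median *r* was 0.47 and 3 pairs passed, *Isg15* with *Rsad2*, *Ifitm1* with *Ifitm2* and *Ifit1* with *Isg15*. The median within cohorts was 0.17 without P8, 0.02 without R9 and -0.09 without both mice, when 19 pairs were positive and 26 negative. Leaving out both was chosen after the values were seen, with P8 highest in 5 members and R9 lowest in 7. Removing the members' own extreme mice tends to lower these correlations, so no conclusion is drawn from the lower median.

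Some single pairs had a higher *r*, with and without P8 and R9. Without these mice *Ifitm6* was at -0.85 with *Isg15* and -0.74 with *Ifit1*, so strong values of *r* ran both ways there. *Isg15* and *Rsad2* had a within-cohort *r* of 0.84 (*p* = 0.0153) and a rho of 0.72 (*p* = 0.0395), both by exact permutation, with an adjusted *p* of 0.172 for *r* over 45 pairs, and an *r* of 0.89 without P8 and R9, which were also the mice farthest from the median of *Isg15*. It was 0.95 without P8 alone and 0.66 without R9 alone. With the cohorts pooled the *r* was 0.91 (adjusted permutation *p* = 0.0126). *Ifit1* and *Isg15* had an *r* of 0.81 (*p* = 0.00972) and a rho of 0.62 (*p* = 0.0881) by exact permutation, and an *r* of 0.57 without P8 and R9 and 0.61 without R1 and R9, the mice farthest from the median of *Ifit1*. *Ifit1* and *Rsad2* did not pass, with an *r* of 0.68 (*p* = 0.0733) and a rho of 0.38 (*p* = 0.368) by exact permutation, 0.27 without R1 and R9 and 0.43 without P8 and R9.

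*Ifitm1* and *Ifitm2* formed the tightest pair, with an *r* of 0.90 (*p* = 0.00708, adjusted *p* = 0.172) and a rho of 0.81 (*p* = 0.014) by exact permutation. The *r* was 0.87 without P1 and R9 and 0.82 without P8 and R9. *Ifitm3* and *Ifitm6* formed a second pair with an *r* of 0.76 (*p* = 0.0142, adjusted *p* = 0.172) and a rho of 0.67 (*p* = 0.0376) by exact permutation, which was 0.48 without P8 and R9. Across these pairs the *r* was 0.23 for *Ifitm1* with *Ifitm3*, 0.45 for *Ifitm1* with *Ifitm6*, 0.45 for *Ifitm2* with *Ifitm3* and 0.52 for *Ifitm2* with *Ifitm6*, so that all 6 pairs of IFITM genes were positive. The median over the 6 pairs was 0.49, against 0.06 without P8 and R9. Outside the family, *Ifitm3* had an *r* of 0.62 with *Ifi27l2a* (*p* = 0.046, adjusted *p* = 0.416) and a rho of 0.58 (*p* = 0.0835) by exact permutation. That *r* was 0.67 without P8 and R9 and 0.36 without P8 alone.

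*Ifit2* and *Ifit3* stood outside these pairs. *Ifit2* had a negative within-cohort *r* with 8 of the other members, *Ifit3* (0.39) being the exception, and *Ifit3* had *r* values of -0.31 with *Isg15*, -0.37 with *Rsad2* and 0.24 with *Ifit1*. None of these passed a permutation test. *Ifit3* with *Ifitm1* had an *r* of -0.49 (*p* = 0.134) and a rho of -0.67 (*p* = 0.0413, adjusted *p* = 0.394) by exact permutation.

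**Figure D3:**
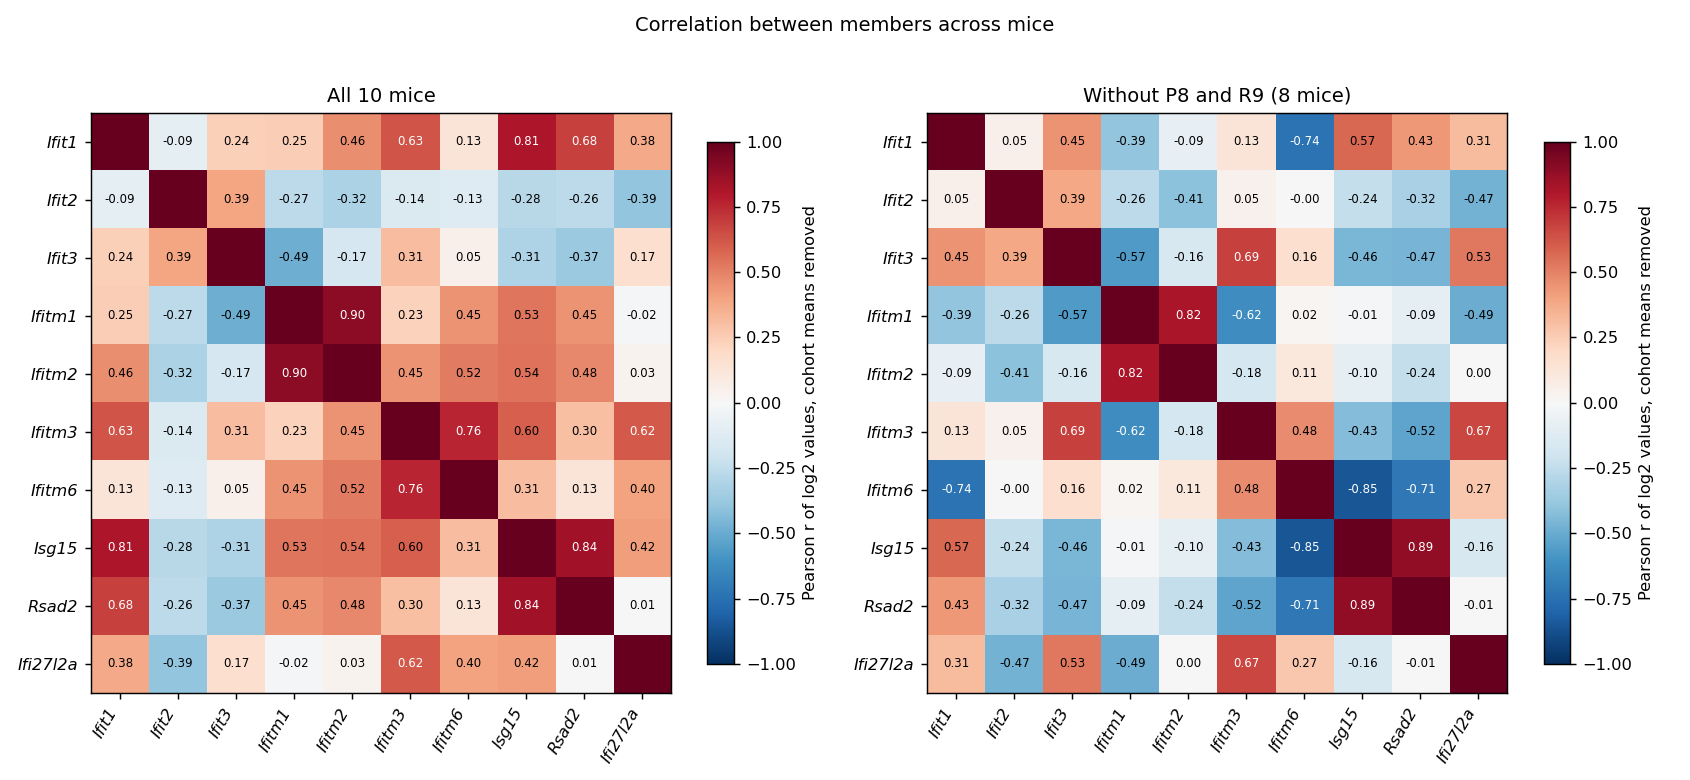
Pearson *r* between the log2 values of each pair of members across mice after removal of the cohort means (color, -1 to 1, with the value in each cell), for all 10 mice (left) and without P8 and R9 (right). On the left most pairs are positive (32 of 45). On the right *Isg15* with *Rsad2* (0.89) and *Ifitm1* with *Ifitm2* (0.82) remain high. *Ifitm6* is there at -0.85 with *Isg15* and -0.74 with *Ifit1*, and the median is -0.09.

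Against the red cell membrane list, *Rsad2* had a within-cohort *r* of 0.92 (*p* = 0.00569, adjusted *p* = 0.190 over 100 relations) and a rho of 0.68 (*p* = 0.0689) by exact permutation, and an *r* of 0.81 without P1 and R9. *Isg15* had an *r* of 0.83 (*p* = 0.00986) and a rho of 0.66 (*p* = 0.0622) by exact permutation against the same list, and 0.66 without P1 and R9. Its *r* against the globin list was 0.87. *Ifit3* ran the other way, with an *r* of -0.51 (*p* = 0.0953) and a rho of -0.78 (*p* = 0.00938) by exact permutation, and -0.77 without P1 and R9.

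Against the neutrophil list *Ifitm1* had an *r* of 0.75 (*p* = 0.0443) and a rho of 0.62 (*p* = 0.0693) by exact permutation, 0.46 without P3 and R1 and 0.87 without P8 and R9. *Ifitm2* had an *r* of 0.70 (*p* = 0.109, exact permutation) with the same list, 0.44 without P3 and R1, while *Isg15*, *Rsad2* and *Ifitm3* had values of -0.08, -0.04 and -0.14. *Ifitm1* had values as high with the lists of red cells. Its *r* was 0.75 (*p* = 0.0164) and its rho 0.88 (*p* = 0.00465) with the globin list by exact permutation, 0.74 without P1 and P8, and 0.71 (*p* = 0.0628) with a rho of 0.78 (*p* = 0.015) with the red cell membrane list, 0.29 without P1 and R9. *Ifitm2* had an *r* of 0.65 with the red cell membrane list (0.02 without P1 and R9) and of 0.62 with the globin list (0.79 without P1 and P8).

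*Ifitm3* had its highest positive *r* among these lists with the monocyte list, 0.63 (*p* = 0.0751) with a rho of 0.56 (*p* = 0.111) by exact permutation, 0.34 without P7 and R9 and 0.90 without P8 and R9. *Ifit1* had an *r* of -0.92 (*p* = 0.00278) and a rho of -0.95 (*p* = 0.00104) by exact permutation with the eosinophil list, of which 4 of 6 markers were measured, and -0.79 without R8 and R9. All 10 members had a negative *r* with that list, among them *Ifitm3* with -0.69 (*p* = 0.0328) and a rho of -0.73 (*p* = 0.0229) by exact permutation, -0.80 without R8 and R9, *Isg15* with -0.68 and *Rsad2* with -0.59. The summed value of the 4 eosinophil markers ran from 516 to 719 in AIWG-P against 325 to 858 in AIWG-R, and 0 of them passed. Of the 100 relations between a member and a marker list, 0 passed after adjustment within the cohorts, where the smallest adjusted permutation *p* was 0.139 for *r* and 0.104 for rho, and 3 passed with the cohorts pooled, *Rsad2* and *Isg15* with the red cell list and *Isg15* with the globin list (adjusted permutation *p* = 0.0147 each).

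**Figure D4:**
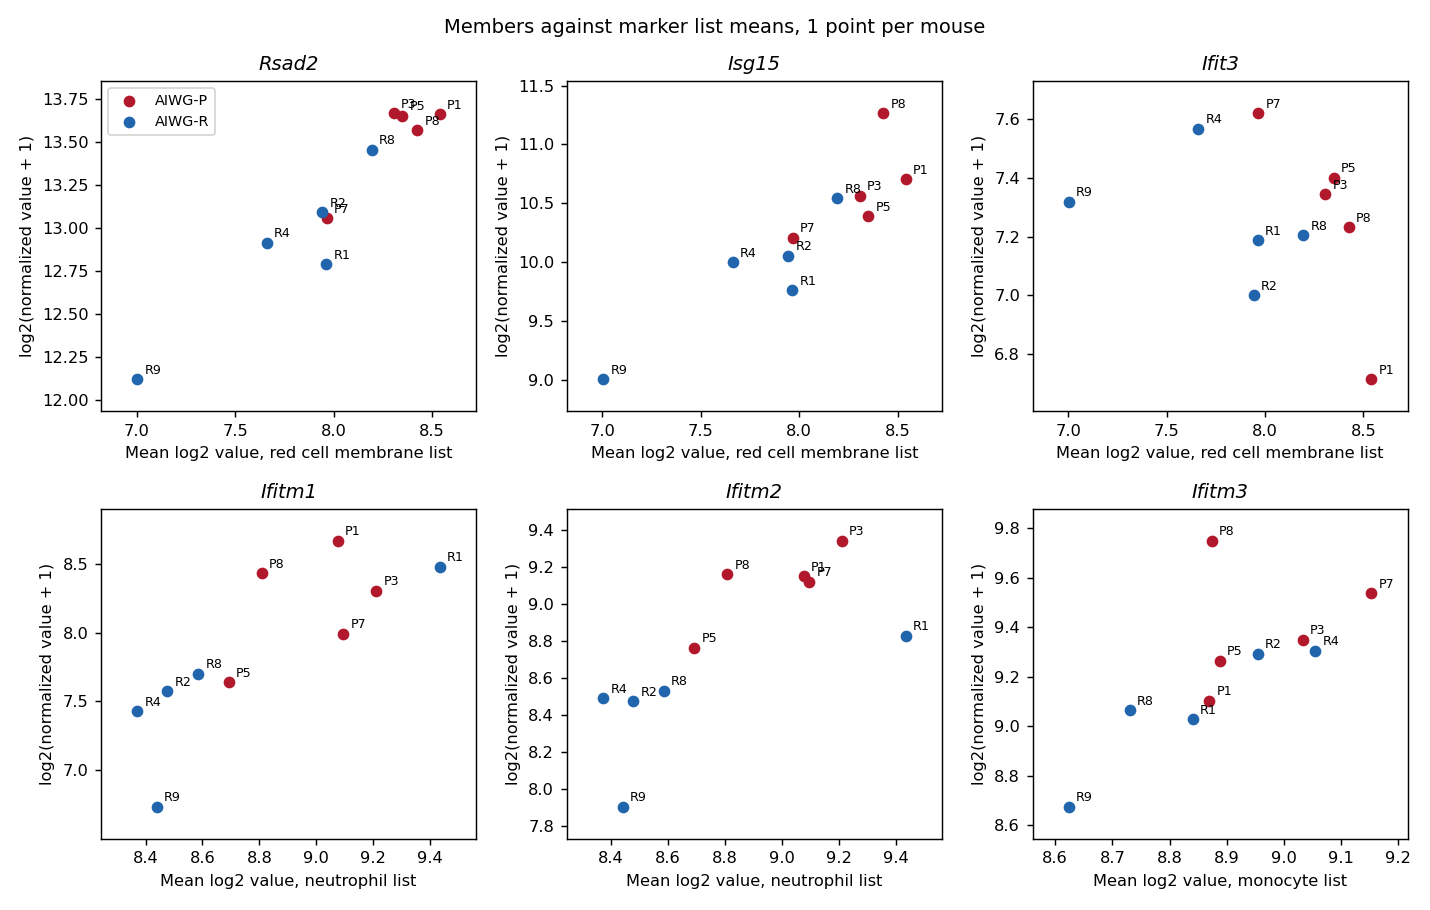
Log2(value + 1) of 6 members (vertical axes) against the mean log2 value of a marker list (horizontal axes), 1 labelled point per mouse, AIWG-P in red and AIWG-R in blue. *Rsad2* and *Isg15* climb with the red cell list from R9 to P1, *Ifit3* does not, and *Ifitm1* and *Ifitm2* climb with the neutrophil list, where R1 is farthest right.

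**Figure D5:**
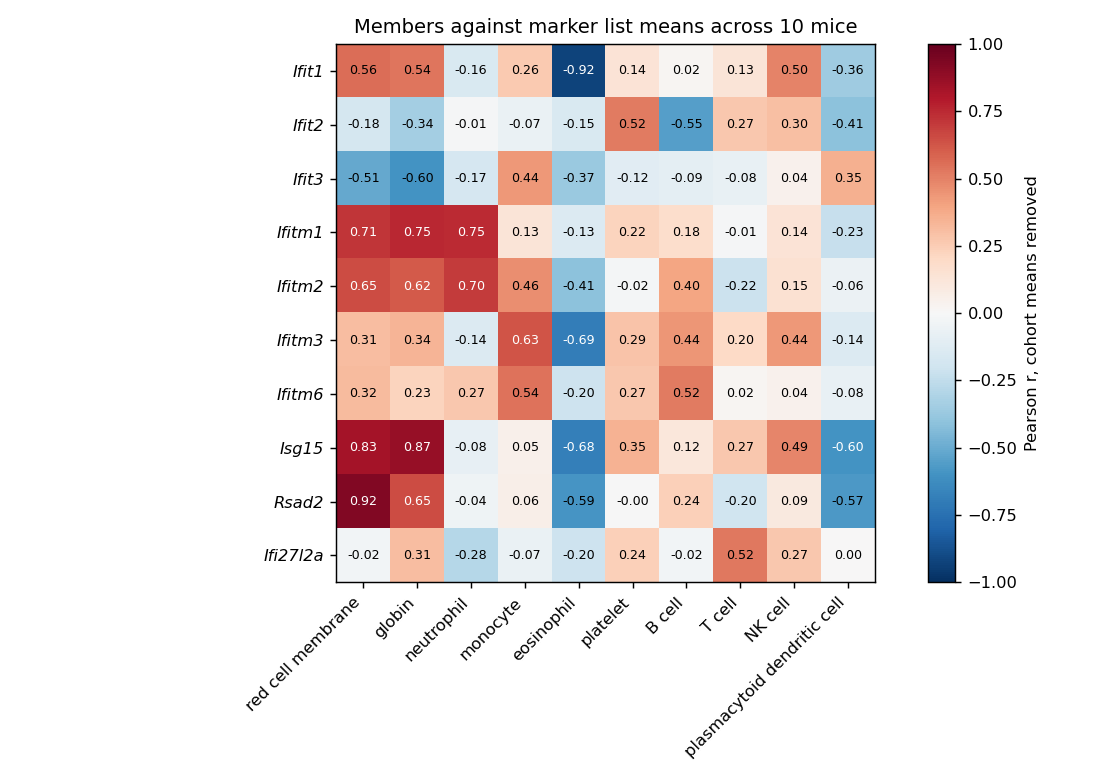
Pearson *r* across the 10 mice, cohort means removed, between each member (rows) and the mean of each marker list (columns), with the value in each cell. The red cell and globin columns are high for *Isg15* (0.83 and 0.87) and *Rsad2* (0.92 and 0.65) and also for *Ifitm1* (0.71 and 0.75) and *Ifitm2* (0.65 and 0.62), they are negative for *Ifit3*, and the neutrophil column is above 0.5 for *Ifitm1* and *Ifitm2* alone.

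Of 69 other measured genes of the interferon response 3 rose in AIWG-P (4.35%) and 0 fell, beside 4.06% of all genes that rose and 3.23% that fell. Their log2 fold changes were above 0 in 42 genes (60.9%), with a median of 0.04. Without P8 and R9, 1 of the 69 rose and 0 fell, where 1.71% of all genes rose and 1.80% fell. Of the 16 genes for the interferon receptor, its kinases and the transcription factors downstream, 1 rose, *Irf7*, which amplifies interferon production. *Irf7* had values of 1713, 1801, 1544, 1317 and 2965 in AIWG-P against 1091, 1304, 1547, 1784 and 722 in AIWG-R, the same order at both ends as *Isg15* (log2 fold change 0.54, 95% interval 0.02 to 1.07, adjusted *p* = 0.382, limma). *Irf9*, at 538 in AIWG-P against 539 in AIWG-R, did not pass.

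Of the 7 measured genes that join ISG15 to proteins or remove it, 1 rose. This was *Ube2l6*, the conjugating enzyme of ISG15, with values of 77608, 65884, 52167, 51674 and 83359 in AIWG-P against 48340, 48318, 44697, 67638 and 34060 in AIWG-R (log2 fold change 0.45, 95% interval 0.01 to 0.89, adjusted *p* = 0.387, limma). *Usp18*, which removes ISG15, was at 66.6 in AIWG-P against 62.9 in AIWG-R and did not pass. Of 42 other interferon-induced effectors 1 rose, the ADP-ribosyltransferase gene *Parp12* (71.0 in AIWG-P against 54.6 in AIWG-R, log2 fold change 0.36, 95% interval 0.10 to 0.63, limma). *Oasl2*, at 456 in AIWG-P against 372 in AIWG-R, missed the fold threshold (log2 fold change 0.31, 95% interval 0.05 to 0.56, limma), and *Mx1*, at 58.9 in AIWG-P against 62.7 in AIWG-R, did not pass. Of 5 further genes of these families (*Gm14446*, *2010002M12Rik* and *I830012O16Rik*, named *Ifit1bl1*, *Ifit1bl2* and *Ifit3b* in RefSeq, with *Ifitm10* and *Ifi27*), 0 passed, and all 5 log2 fold changes were positive, between 0.15 and 0.21.

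Among genes outside the 10, those most like the mean of *Ifit1*, *Ifit2*, *Ifit3*, *Isg15* and *Rsad2* over the 10 mice, cohort means removed, were *Ppap2b* (*r* = 0.89), *Epas1* (0.89), *Rala* (0.89), *Plin3* (0.88) and *Ube2d3* (0.88). Those most like the mean of the 4 IFITM genes were *Htra2* (0.94), *Sqrdl* (0.92), *Map3k11* (0.92), *Rad9a* (0.92) and *Acat2* (0.91). For single members, which were looked up after their values were seen, *Isg15* had *Btg3* (0.97) and *Irf7* (0.97), *Ifitm1* had the lactate transporter gene *Slc16a3* (0.96) and the myeloid lectin gene *Clec4d* (0.95), *Ifitm3* had the macrophage and monocyte genes *Cd68* (0.96) and *Cd300e* (0.95), and *Ifit3* had *Gm14446* (0.94) in second place. Each is picked from the 10429 genes tested, over 10 mice, and is given as a description.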

How the data were processed

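Whole-blood RNA of 10 mice was sequenced from TruSeq libraries. Per the study's methods and the submitters' processing notes, Bowtie2 mapped the reads, RSEM gave gene counts and limma was used for statistics (build mm9; versions are not given). The deposited table holds a normalized expression signal per gene and mouse. Its normalization by the authors and their choice of genes are not stated. Within a mouse every value sat on a whole multiple of a step, to a tolerance of 0.02 steps, and the total in steps was 24447563 to 32293924 for AIWG-P mice and 23810098 to 28093845 for AIWG-R mice. The authors' cohort mean signal, signed fold score, log2 ratio, p-value and q-value columns were not used. No column was left without a sample.

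Genes above 1 in at least 5 mice (10429 of 10431) were fitted with limma 3.58.1 in R 4.3.3 on log2(value + 1) with a mean-variance trend. This scale slightly understates changes of low genes. Genes were called at *p* under 0.05, not adjusted, with a log2 fold change beyond 0.322 either way, and *p*-values were adjusted by Benjamini-Hochberg over all genes. Exact permutation tests were 2-sided. Correlations used Python 3.11.15 and scipy 1.17.1, with 14400 exact permutations of mice within cohorts, or 100000 for pooled values. Scripts were tested on simulated data. The genes, marker and pathway lists were chosen with earlier results of these data known. Genes named in the text were all 10 members, other measured family members, pathway genes past both thresholds, marker lists that moved most with the members, and the 5 genes most like each family mean; *Irf9*, *Usp18*, *Oasl2*, *Mx1*, *Cmpk2*, *Slc4a1* and some of the genes most like single members were added after their values were seen. List symbols were matched through 10368 gene IDs in the RefSeq table. Promoters are from RefSeq (GRCm38.p6), and no coordinates were taken from the mm9 files. Alternatives were other scalings, filters, pseudocounts and thresholds, leaving out each mouse, covariates, and a replicate block. The mouse numbers name mice within a cohort and pair nothing.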

Additional observations from a re-analysis of the deposited data

Results flagged for a closer look

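In each cohort of 5 mice, the gap between the highest or lowest value of a member and its neighbour was compared with the whole range by Dixon's ratio. Of 20 such groups, 1 passed the critical value of 0.71, *Rsad2* in AIWG-P, where P7 at 8523 lay below the other 4 mice with a ratio of 0.834. Chance flags about 1 in 20 groups. P7 is also the AIWG-P mouse with the lowest red cell membrane list mean, and whether this bears on its *Rsad2* value was not tested.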

How the results depend on the processing

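No member reversed its call under any alternative. *Ifitm2* was called throughout, and *Isg15* and *Rsad2* lost the call only with the red cell covariate, *Rsad2* also after quantile normalization. The number of members that rose, 5, was 3 when globins were left out of the scaling, without a mean-variance trend, with the label number or the monocyte list as a covariate, or without P8 and R9 (chosen after seeing the data), and 1 with the red cell covariate. It ran from 3 to 6 when each mouse was left out, 3 being without P8 or without R9. The number that fell was 1 (*Ifit2*) with globins left out or in the replicate block, and from 0 to 1 when each mouse was left out (1 without P7). The scaling without globins moved the median log2 fold change of all genes to -0.15, and *Ifit2* was 0.24 below that median, as in the main scaling. Under it 162 genes rose and 1212 fell (11.8% of calls higher, 55.7% in the main scaling), and 0 pathway genes rose and 2 fell.

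Of all genes, 423 rose and 337 fell. These counts were 702 and 638 with no fold threshold, 178 and 188 without P8 and R9, and 770 and 1006 in the replicate block. In addition, 138 rose with the red cell covariate (36.1% of calls higher), 164 fell in the mice with label number 4 (70.3% higher), and 196 fell at the 0.75 threshold (68.3% higher). In the block 43.4% of calls were higher, and 1 residual degree of freedom remained, since the cohorts share only the numbers 1 and 8. The deviations of same-numbered mice correlated at 0.116 and 0.327 over genes. In the block 6 members rose, and 2 pathway genes rose and 2 fell. *Isg15* had a log2 fold change of 0.83 and was the only member with an adjusted *p* under 0.05 (0.000237, limma), as were 422 genes in all. The cohort difference in this fit rests on P1, R1, P8 and R8 alone. Since the numbers pair nothing, no conclusion is drawn from its *p*-values. Leaving out each mouse gave 265 to 563 genes that rose and 228 to 637 that fell (637 without P3, 602 without P5), 0 to 4 pathway genes that rose, and a median correlation of 0.02 to 0.40, which was -0.086 without P8 and R9 and 0.16 with the red cell covariate. Pathway genes that rose, 3, were 1 in label number 4 mice, with the red cell covariate or without P8 and R9, 0 with the monocyte covariate, and 8 with no fold threshold, where 1 fell. The count tests planned with edgeR and DESeq2 were not run, since the values were not accepted as whole reads. In every fit without the block, no gene passed adjustment over all genes.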
